A study of Mus musculus with 42 samples.

Results

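Ifnb1, the gene of interferon beta, and the genes of 8 interferon regulatory factors (Irf1, Irf2, Irf3, Irf4, Irf5, Irf7, Irf8 and Irf9) were followed by symbol among 21897 protein-coding genes of the mouse genome. Occupancy of RNA polymerase II (Pol II) and of H3K27ac, the acetylated histone H3 found at promoters and enhancers in use, was measured by ChIP-seq in bone marrow-derived macrophages (BMDMs). The cells came from male C57Bl6/J mice of 6 to 12 weeks and were grown for 7 days in medium with L929-conditioned supplement. WT and Nur77-KO cells were left untreated (0 h) or given 100 ng/ml LPS, the cell wall component of Gram-negative bacteria, for 1 h or 18 h, with 3 libraries per genotype, time and antibody, and 1 input library per genotype and time. The nuclear receptor Nur77 is the product of Nr4a1. The sample labels give the KO genotype only as "cre", while the methods of the study describe a germline deletion of floxed Nr4a1 with a ubiquitous CMV-Cre that was afterwards bred out, with WT littermates as controls. The methods of the study speak of biological replicates, but neither they nor the labels say whether the 3 libraries of a group came from separate mice or cultures, so p-values measure only the spread between these libraries. The comparisons asked how each gene responded to LPS and whether loss of Nur77 went with another level or another response.

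Interferon beta is the type I interferon that macrophages secrete first after Toll-like receptor 4 (TLR4) binds LPS. The adaptor TRIF leads to phosphorylation of IRF3, which binds the Ifnb1 promoter together with NF-kB and AP-1 (ATF2 and JUN). Secreted interferon beta acts on its own receptor, and IRF9 then acts as the DNA-binding part of the complex ISGF3, which binds interferon-stimulated response elements (ISRE) in target genes, Irf7 among them. IRF7 extends the interferon response, IRF1 is an activator induced by interferon and NF-kB, and IRF2 binds the same elements as IRF1 and mostly represses. IRF5 serves in the induction of inflammatory cytokines, whereas IRF4 and IRF8 pair with the macrophage factor PU.1 and act in the identity of myeloid cells, IRF8 also in that of dendritic cells.

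The promoters of Ifnb1, Irf1, Irf2, Irf7 and Irf8 are shown because Pol II rose most at Ifnb1, Irf1 and Irf7 after 1 h of LPS in WT and because the responses of Irf2, Irf7 and Irf8 at 1 h differed between genotypes. They are RefSeq sequences of assembly GRCm38.p6, from 250 bases before to 50 bases after the start of transcription, written 5′ to 3′ on the strand of the gene. Capitals mark matches to the motifs ISRE (GAAANNGAAA), GAS (TTCNNNGAA, the gamma-activated site), AP-1 (TGANTCA), NBRE (AAAGGTCA, the site that NR4A receptors bind) or NF-kB, searched on both strands.
Ifnb1, chr4:88522745-88523044, minus strand: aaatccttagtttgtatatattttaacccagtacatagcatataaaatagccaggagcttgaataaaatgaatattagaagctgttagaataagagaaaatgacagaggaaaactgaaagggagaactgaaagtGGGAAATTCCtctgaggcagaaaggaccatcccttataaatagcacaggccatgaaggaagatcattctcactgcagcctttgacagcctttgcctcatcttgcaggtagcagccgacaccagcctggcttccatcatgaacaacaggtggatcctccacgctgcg
Irf1, chr11:53769764-53770063, plus strand: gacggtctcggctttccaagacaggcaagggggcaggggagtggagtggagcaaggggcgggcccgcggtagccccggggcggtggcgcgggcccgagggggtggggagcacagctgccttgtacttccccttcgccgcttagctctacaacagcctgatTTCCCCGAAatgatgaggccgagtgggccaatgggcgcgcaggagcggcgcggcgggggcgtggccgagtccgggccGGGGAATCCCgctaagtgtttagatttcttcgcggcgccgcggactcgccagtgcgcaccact
Irf2, chr8:46739495-46739794, plus strand: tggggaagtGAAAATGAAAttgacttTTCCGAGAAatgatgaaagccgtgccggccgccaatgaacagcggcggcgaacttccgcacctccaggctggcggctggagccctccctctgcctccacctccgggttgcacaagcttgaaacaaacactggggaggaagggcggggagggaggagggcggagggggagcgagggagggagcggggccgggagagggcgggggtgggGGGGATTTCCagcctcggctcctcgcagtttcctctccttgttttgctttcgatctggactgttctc
Irf7, chr7:141266375-141266674, minus strand: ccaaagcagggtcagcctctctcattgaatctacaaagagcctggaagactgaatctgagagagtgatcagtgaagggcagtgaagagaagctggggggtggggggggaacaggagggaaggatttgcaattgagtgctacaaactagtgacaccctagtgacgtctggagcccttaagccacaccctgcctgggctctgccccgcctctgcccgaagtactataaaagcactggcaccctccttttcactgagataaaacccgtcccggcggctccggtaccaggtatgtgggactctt
Irf8, chr8:120736108-120736407, plus strand: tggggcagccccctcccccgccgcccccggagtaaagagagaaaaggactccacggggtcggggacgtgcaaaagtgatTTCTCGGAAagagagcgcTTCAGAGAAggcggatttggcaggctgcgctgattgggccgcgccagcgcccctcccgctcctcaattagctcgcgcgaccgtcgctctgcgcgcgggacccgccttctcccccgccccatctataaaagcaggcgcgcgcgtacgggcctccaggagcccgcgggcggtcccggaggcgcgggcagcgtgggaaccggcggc
The Ifnb1 promoter held 1 NF-kB match at -116 to -107. In Irf1 a GAS match lay at -90 to -82 and an NF-kB match at -13 to -4, which read as NF-kB on both strands. The Irf2 promoter held an ISRE match at -241 to -232, a GAS match at -224 to -216 and an NF-kB match at -17 to -8, none of them overlapping. In Irf8 there were 2 GAS matches, at -171 to -163 and at -153 to -145, and in Irf7 these letters were not found in this window. Each of the 9 genes had at least 1 entry, and Irf1, Irf8 and Irf9 had 2, which gave 12 promoters in all. The entries of Irf3, Irf4 and Irf5 held no match, and 1 of the Irf9 entries held an NBRE match at -135 to -128 on the minus strand. Among 32851 mouse promoters of the same length, ISRE letters were found in 3.44%, GAS in 8.30%, AP-1 in 7.81%, NBRE in 1.51% and NF-kB in 4.51%.

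Values are the normalized tags (per 10 M mapped tags) of the regions called in each library, shared out by overlap. Pol II was summed over the gene body with 500 bp on either side, and H3K27ac within 2500 bp of the start. A value of 0 means that no region passed the search in that library, not that no reads were there, and a signal spread evenly over a broad region cannot separate promoter from gene body. The Pol II windows of Irf1, Irf5, Irf7 and Irf9 share 907, 1545, 545 and 623 bp with those of Gm17334, Tnpo3, Phrf1 and Rnf31, and regions carry no strand. Depth was 21.7 to 36.1 M mapped tags for Pol II and 13.5 to 55.4 M for H3K27ac, where KO libraries were deeper (mean 36.4 M) than WT libraries (19.8 M). At the targeted gene, Pol II over Nr4a1 was 189, 188 and 208 normalized tags in the WT libraries at 0 h and 87.8, 76.1 and 70.2 in the KO libraries (log2 change -1.22 ± 0.17 SE, adjusted p = 1.2e-04). H3K27ac at the Nr4a1 start was 85.5, 68.5 and 74.4 in WT and 84.4, 61.4 and 74.6 in KO at 0 h, with overlap. The sources used here do not give which part of the gene was deleted, so these values are no full check of the KO labels. At 1 h Nr4a1 stood at 25.5, 23.0 and 30.4 in WT and 33.5, 39.0 and 36.6 in KO, and at 18 h at 7.46, 5.98 and 0 and at 0, 0 and 0. Libraries of a group correlated across genes at r of 0.985 to 0.994, except that H3K27ac of KO replicate 1 at 1 h and 18 h reached 0.910 to 0.914 with its own group. At 1 h that library correlated at 0.978 to 0.980 with the WT libraries of 1 h. At 18 h KO replicate 1 correlated at 0.906 to 0.908 with the WT libraries of 18 h. Whether these libraries were exchanged or mixed was not tested. The H3K27ac results of KO cells at 1 h and 18 h are given with and without KO replicate 1. All 8 macrophage markers had Pol II. Their summed level was 21453 to 25363 tags in WT and 24167 to 25936 in KO at 0 h. It was lower in KO without overlap at 1 h (25138 to 25871 against 33856 to 35826) and 18 h (37349 to 40393 against 43679 to 46254). Adgre1 alone held a mean of 13172 tags in KO and 22417 in WT at 1 h, most of that gap. Mertk (903 against 1448), Itgam (143 against 209), Lyz2 (1038 against 1212) and Cd68 (528 against 546) were also lower in KO at 1 h. By contrast, Csf1r (1142 against 849), Spi1 (8034 against 7886) and Cebpb (436 against 405) were not lower in KO at 1 h. The H3K27ac sum of the same list at 1 h was 5871 to 6530 in KO and 5499 to 5908 in WT. By 18 h that sum was 5510 to 7154 in KO and 7742 to 7909 in WT, lower in KO without overlap. The part of these values in the genotype differences was not tested. Among markers of other cells, Elane, Mpo and S100a9 (neutrophils), Pax5 and Ebf1 (B cells), Cd3e, Cd3g and Cd2 (T cells) and 4 of 5 fibroblast markers were at 0 in all 18 Pol II libraries. The other markers of these lists carried some signal. At 0 h Pol II was 80.5 tags in WT and 111 in KO over Cd79a, 48.1 and 31.0 over Ms4a1, 89.4 and 84.8 over Cd3d and 69.1 and 70.6 over Lck. The neutrophil gene S100a8 was at 16.0 tags in WT and 42.5 in KO in Pol II and at 42.04 and 129 in H3K27ac at 0 h, higher in KO in both. Its part in the results was not tested. Fewer cells carrying polymerase at a gene and less polymerase per cell cannot be told apart in these bulk samples.

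Per kb of window, the Pol II level in untreated WT cells was highest at Irf5 (190.2 ± 13.2 normalized tags per kb, mean ± SD, n = 3), followed by Irf8 (107 ± 7.39) and Irf1 (101 ± 9.23), which lay within their spread of each other. Irf9 (59.3 ± 11.7) and Irf2 (53.4 ± 4.80) were again within their spread, as were Irf3 (40.2 ± 6.12) and Irf7 (35.4 ± 3.31). Irf4 had 2.56 ± 0.551, and Ifnb1 was at 0 in every untreated library. After 1 h of LPS the order in WT cells began with Irf1 (891 ± 36.8 per kb), followed by Irf5 and Ifnb1, whose levels of 129 ± 2.90 and 129 ± 31.9 per kb did not separate. At 18 h Irf1 still led at 323 ± 36.8 per kb, and Irf5 (210.4 ± 16.0) and Irf7 (204 ± 10.6) followed within their spread. Irf9 (109.6 ± 2.47), Irf8 (91.1 ± 1.22), Irf2 (84.2 ± 1.11) and Irf3 (40.5 ± 2.25) came next, each separate from its neighbours.

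**Figure D1:**
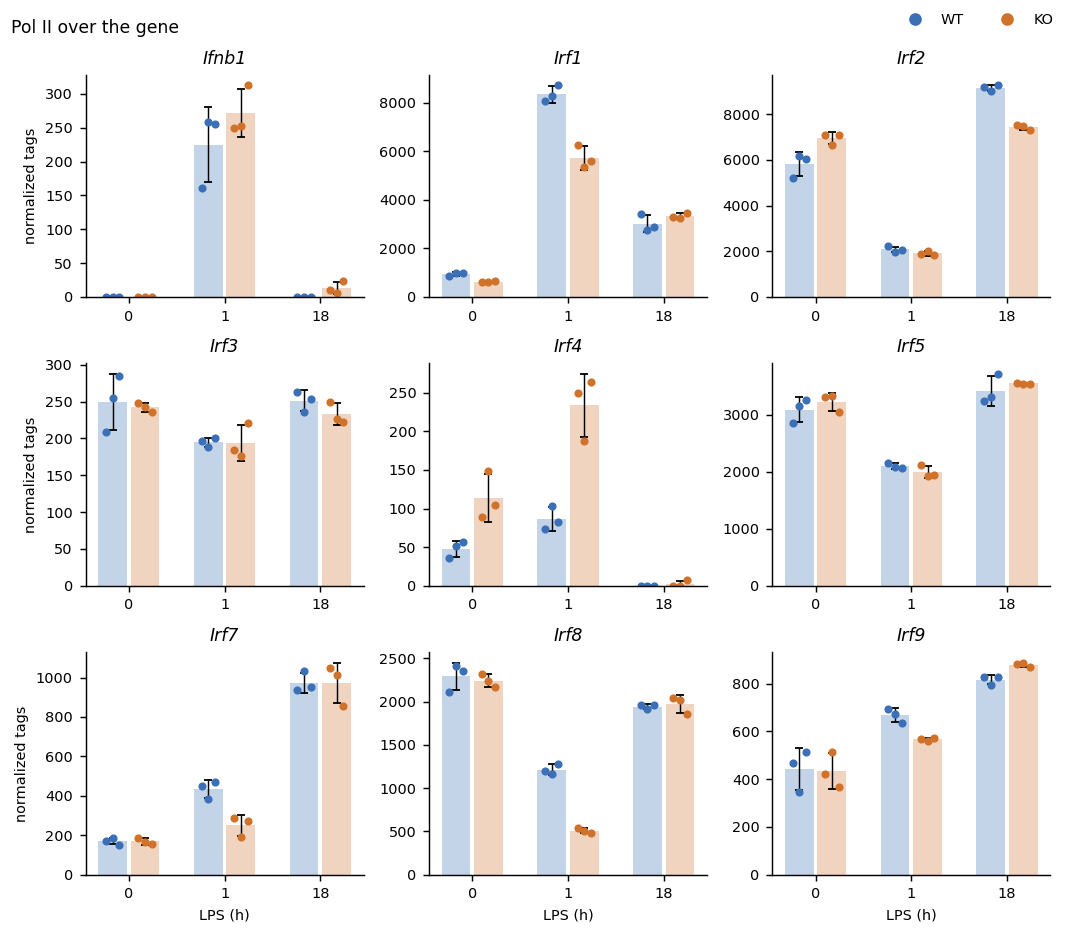
Pol II normalized tags over each of the 9 genes (vertical axis, per 10 M) at 0, 1 and 18 h of LPS (horizontal axis) in WT (blue) and Nur77-KO (orange) BMDMs; bars are means, whiskers SD and points the 3 libraries. Ifnb1 is present at 1 h, Irf1 is highest at 1 h, Irf7 and Irf9 are highest at 18 h, and the KO bars at 1 h are lower for Irf8 and Irf7 and higher for Irf4.

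LPS for 1 h gave called Pol II changes in all 9 genes in both genotypes, 5 higher (Ifnb1, Irf1, Irf4, Irf7 and Irf9) and 4 lower (Irf2, Irf3, Irf5 and Irf8), where limma's test at an adjusted p under 0.05 called 86.9% of all genes tested in WT and 82.9% in KO. That count is therefore near the background. Pol II moved down at most genes, with a median log2 change over all genes of -0.82 in WT and -0.62 in KO. At 18 h against 0 h, 6 of 8 genes tested were called in WT (4 higher, 2 lower) and 6 of 9 in KO (4 higher, 2 lower), against 66.5% and 70.2% of all genes. Between 1 h and 18 h all 9 genes were called in both genotypes (6 higher, 3 lower), against 85.3% and 79.4%. With each library centred on its median, the change from 1 h to 18 h turned in WT for Irf3, Irf5, Irf8 and Irf9.

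Ifnb1 itself (ENSMUSG00000048806, chr4:88522025-88522774, minus strand) gained Pol II within 1 h. It was at 0 in all 6 untreated libraries and reached 161, 259 and 256 normalized tags in WT and 249, 253 and 313 in KO at 1 h. The genotypes overlapped at that time. The fitted log2 change against 0 h was 4.53 ± 0.21 (SE) in WT and 4.81 ± 0.21 in KO (adjusted p = 1.6e-12 and 7.5e-13), values that depend on the 10 tags added before taking logs because the untreated group is listed at 0. Ifnb1 passed the filter here through the 1 h group alone. Over the alternatives the change ran from 3.77 to 7.79 in WT and from 4.04 to 8.08 in KO, so no size is read from it. Inputs of these groups held 24.8 tags in WT and 20.9 in KO at 1 h. By 18 h the WT libraries were again at 0, whereas the KO libraries held 9.54, 5.95 and 22.9 tags.

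Of the interferon-responsive activators, Irf1 (chr11:53770014-53778374) rose most at 1 h. Pol II over Irf1 went from 845, 994 and 996 tags in the untreated WT libraries to 8047, 8255 and 8719 at 1 h, and to 3414, 2762 and 2891 after 18 h, without overlap between times. The change was 3.13 ± 0.081 on the log2 scale at 1 h (adjusted p = 3.7e-16) and 1.66 ± 0.081 at 18 h (adjusted p = 5.4e-12). Irf7 (chr7:141262706-141266481), the factor that extends interferon production, went from 172, 183 and 152 tags to 449, 383 and 469.9 at 1 h and 939, 1032 and 950.2 at 18 h in WT. These changes came to 1.31 ± 0.13 and 2.46 ± 0.13 log2 units over 0 h (adjusted p = 6.2e-08 and 2.4e-11). From 1 h to 18 h Irf7 changed by 1.15 ± 0.13, which with each library centred on its median was 0.28 (adjusted p = 0.061), no longer called. Irf9 (chr14:55603571-55610030), the DNA-binding subunit of ISGF3, changed less, with 468, 345 and 513, then 695, 675 and 635, then 828, 796 and 828 tags in WT. Its log2 changes were 0.60 ± 0.12 at 1 h and 0.89 ± 0.12 at 18 h (adjusted p = 1.5e-04 and 3.8e-06), and in KO 0.39 ± 0.12 and 1.02 ± 0.12. From 1 h to 18 h the Irf9 change in WT was 0.29 ± 0.12 (adjusted p = 0.033) as deposited and -0.58 (adjusted p = 8.5e-04) with centring, so its direction depends on the scaling.

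IRF3, the factor that TRIF signalling activates by phosphorylation, and IRF5 were encoded by genes that moved little. Pol II over Irf3 (chr7:44997648-45002848) stayed between 176 and 285 tags in all 18 libraries. The log2 changes of Irf3 at 1 h, -0.33 ± 0.11 in WT and -0.31 ± 0.11 in KO, were less than the median fall of all genes, and relative to that median they were 0.47 and 0.26. The start of Irf3 lies 1064 bp from that of Bcl2l12 on the opposite strand, and the signals of these neighbours share regions. Irf5 (chr6:29526625-29541871) went from 2851, 3159 and 3263 tags to 2155, 2081 and 2068 at 1 h in WT (log2 change -0.55 ± 0.063 SE, adjusted p = 2.7e-07) and to 2109, 1923 and 1945 in KO. Relative to the all-gene median the Irf5 change was 0.24 in WT and -0.12 in KO, so its direction in WT depends on the scaling.

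Irf2 and Irf8 fell at 1 h, and Irf4 was at 0 by 18 h in WT. Over Irf2 (chr8:46739732-46847458), the antagonist of IRF1, Pol II fell from 5209, 6169 and 6046 tags to 2219, 1981 and 2061 at 1 h in WT (log2 change -1.47 ± 0.061 SE, adjusted p = 3.0e-13) and then rose above the start level, to 9178, 9019.5 and 9257 at 18 h (log2 change 0.66 ± 0.061 SE, adjusted p = 4.1e-08). Within 500 bp of its start, the Irf2 change at 1 h in WT was 0.057 (adjusted p = 0.782). Evenly shared tags do not place the fall within the gene, as called regions covered all of the Irf2 window in untreated cells and less of it at 1 h. Irf8 (chr8:120736358-120756694) dropped from 2114, 2414 and 2349 to 1195, 1167 and 1282 tags at 1 h and was back at 1961, 1913 and 1957 at 18 h in WT, with log2 changes of -0.91 ± 0.063 and -0.23 ± 0.063 (adjusted p = 3.1e-10 and 0.0032). Relative to the median of all genes the fall of Irf8 by 1 h came to -0.11 in WT and -1.54 in KO, and that of Irf2 -0.67 and -1.29. The window of Irf8 lies wholly inside the longer annotated gene Gm20388 on the same strand, and the signals of both cannot be told apart. Irf4 (chr13:30749226-30766976), a factor of alternative macrophage activation, had little Pol II throughout. Its WT libraries held 36.4, 51.7 and 56.1 tags at 0 h, 73.4, 104 and 82.6 at 1 h (log2 change 0.74 ± 0.22 SE, adjusted p = 0.0047) and 0 in all 3 libraries at 18 h. The 1 h call was lost within 500 bp of the start, at 3.6e-04 (adjusted p = 0.999) in WT and 0.086 (adjusted p = 0.754) in KO, and with 1 tag added in place of 10 (adjusted p = 0.166 and 0.094).

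**Figure D2:**
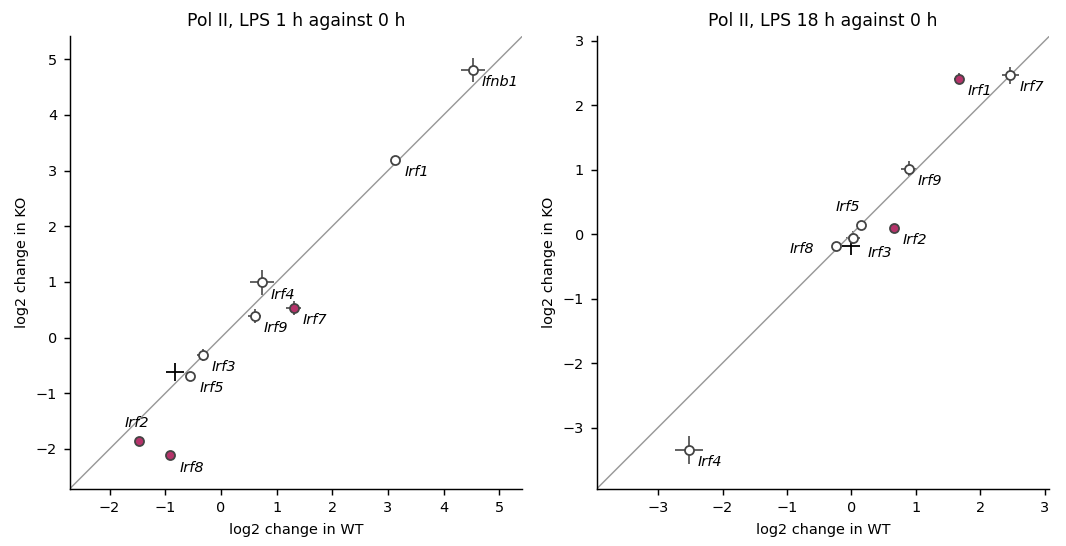
Log2 change in Pol II after LPS in WT (horizontal axis) and in KO (vertical axis) for each gene, at 1 h and at 18 h; bars are SE, filled points mark a called difference between the 2 responses, the cross is the median of all genes tested and the grey line marks equal changes. At 1 h Irf8, Irf7 and Irf2 lie below the line, and at 18 h Irf1 lies above it and Irf2 below it; Ifnb1 could not be tested in WT at 18 h and is not in that panel.

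Comparison of KO with WT cells at the same time separated the factors into those with less Pol II (Irf8, Irf7 and Irf1 at 1 h), one with more (Irf4) and those with no called difference at that time. At 0 h 3 of 8 genes tested were called (2 higher, 1 lower), where 6.96% of all genes were. At 1 h 4 of 9 were called (1 higher, 3 lower), close to the 45.7% of all genes, and at 18 h 2 of 8 (1 higher, which was Ifnb1 against WT libraries at 0, and 1 lower), against 21.1%. Averaged over the 3 times, 5 of 9 were called (2 higher, Irf4 and Ifnb1, and 3 lower), against 26.4%. Ifnb1 is listed at 0 in both genotypes at 0 h and in WT at 18 h, so its call there rests in part on values of 0. The median of all genes in KO against WT was 0.24 at 1 h and -0.10 at 18 h. Centring each library on its median raised the count at 1 h to 8 of 9 genes, with Ifnb1 the exception, and that at 18 h to 5. With the same centring 37% and 23.1% of all genes were called.

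Irf8 differed most among the genes with less Pol II in KO. At 1 h its KO libraries held 534, 509 and 485 tags and its WT libraries 1195, 1167 and 1282, so every KO library was below every WT library. The mean was 2.39-fold lower in KO (log2 change -1.24 ± 0.063 SE, adjusted p = 2.1e-10). Called regions covered 84.1 to 86.8% of the Irf8 window in the KO libraries at 1 h and all of it elsewhere. Before LPS the KO libraries were at 2316, 2244 and 2164 and at 18 h at 2043, 2014 and 1853, both overlapping WT, with differences of -0.031 ± 0.063 and 0.018 ± 0.063 (adjusted p = 0.855 and 0.868). The log2 change of Irf8 after 1 h of LPS was -2.12 ± 0.063 in KO (adjusted p = 2.5e-15), against -0.91 ± 0.063 in WT. The interaction term, which is the LPS change in KO less that in WT, was -1.21 ± 0.089 (adjusted p = 1.4e-07). It was called in each of 11 alternative analyses, from -1.43 to -0.67, the smallest within 500 bp of the start.

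Irf7 was called at 1 h. Its KO libraries held 288, 189.5 and 273 tags and WT libraries 449, 383 and 469.9, without overlap (log2 change -0.79 ± 0.13 SE, adjusted p = 2.0e-04). At 0 h and 18 h the groups overlapped, with differences of -0.0089 ± 0.13 and -0.0067 ± 0.13 (adjusted p = 0.985 and 0.978). The response at 1 h was smaller in KO (interaction -0.78 ± 0.19, adjusted p = 0.009), a call lost without replicate 1 (adjusted p = 0.053), without replicate 3 (0.073) and where regions were counted whole (0.067). The levels reached at 18 h were 972 ± 103 in KO and 974 ± 50.6 in WT (SD, n = 3).

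Irf1 started lower in KO and stayed lower at 1 h. Its KO libraries held 612, 607 and 638 tags at 0 h, all below the WT libraries (log2 change -0.60 ± 0.081 SE, adjusted p = 1.2e-04), and 6274, 5332 and 5579 at 1 h, again all below WT (log2 change -0.54 ± 0.081 SE, adjusted p = 6.3e-05). The LPS response at 1 h was of similar size, 3.13 ± 0.081 in WT and 3.19 ± 0.081 in KO, with an interaction of 0.055 ± 0.11 (adjusted p = 0.778). By 18 h the KO libraries held 3290.4, 3240.1 and 3465 and overlapped WT (log2 change 0.15 ± 0.081 SE, adjusted p = 0.222). That difference was called with centring, at 0.28 (adjusted p = 0.013), with regions counted whole, at 0.24 (adjusted p = 0.0037), and without replicate 1, at 0.24 (adjusted p = 0.019). The change from 0 h to 18 h was larger in KO (interaction 0.74 ± 0.11, adjusted p = 3.0e-04).

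Irf4 was higher in KO cells before and 1 h after LPS. At 0 h its KO libraries held 88.8, 148 and 104 tags (log2 change 1.08 ± 0.22 SE, adjusted p = 0.0047) and at 1 h 249, 188 and 264 (log2 change 1.33 ± 0.22 SE, adjusted p = 1.5e-04), in both cases above every WT library. Called regions covered 11.3 to 19.8% of the window at 0 h and 25.3 to 34.7% at 1 h in WT, against 25.1 to 51.7% and 59.4 to 86.9% in KO. Within 500 bp of the start the differences were 0.31 (adjusted p = 0.535) at 0 h and 0.40 (adjusted p = 0.171) at 1 h, and neither was called. The call at 0 h was also lost with 1 tag added in place of 10 (adjusted p = 0.27), without replicate 1 (0.059) and without replicate 2 (0.072). IRF4 is also a dendritic cell factor, and of 5 dendritic cell markers Siglech was at 0 in all Pol II libraries, while Xcr1 carried most of the summed level of 258 to 337 tags in WT and 295 to 323 in KO at 0 h, and of 1159 to 1374 and 1142 to 1282 at 1 h. At 18 h that sum was 381 to 461 in WT and 408 to 962 in KO, with overlap, and its part was not tested.

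Irf2 and Ifnb1 were the genes called at 18 h. Pol II over Irf2 in KO was 7107, 6669.6 and 7099 tags at 0 h, above all WT libraries (log2 change 0.26 ± 0.061 SE, adjusted p = 0.013), and 7526, 7468 and 7305 at 18 h, below all of them (log2 change -0.30 ± 0.061 SE, adjusted p = 0.002). The change from 0 h to 18 h in KO was not called (log2 change 0.10 ± 0.061 SE, adjusted p = 0.174) and was smaller than in WT (interaction -0.56 ± 0.087, adjusted p = 3.0e-04). The fall at 1 h was deeper in KO (interaction -0.39 ± 0.087, adjusted p = 0.005). The calls of Irf2 at 0 h were lost without replicate 1 (adjusted p = 0.14) and without replicate 3 (0.13), that at 18 h without replicate 3 (0.074), and the interaction at 1 h without either (0.059 and 0.084) and with regions counted whole (0.202). Within 500 bp of the start all of these and the 18 h interaction were lost, with adjusted p of 0.586 at 0 h, 0.497 at 18 h, and 0.451 and 0.331 for the interactions at 1 h and 18 h. For Ifnb1 the KO libraries at 18 h, at 9.54, 5.95 and 22.9 tags, lay above the WT libraries, which are all listed at 0. Ifnb1 passed the filter at 18 h through the KO group alone, so its call there follows from regions found in one group and not in the other, and no size is given. The KO values are at the scale of the inputs, which held 7.58 tags at Ifnb1 in WT at 18 h, 0 in KO at 18 h and 6.18 in KO at 0 h. That KO input of 18 h had 27554 called regions, against 64725 to 108461 in the other inputs, so its 0 says little. Within 500 bp of its start the Ifnb1 call was not made (adjusted p = 0.359). At 1 h, when Ifnb1 was highest, the difference was 0.28 ± 0.21 (adjusted p = 0.287). It was called with regions counted whole, at 0.62 (adjusted p = 0.0062), and in none of the other 10 alternatives.

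In Pol II no difference between genotypes was called at any time for Irf3, Irf5 and Irf9 in the values as deposited. At 1 h the differences were -0.014 ± 0.11 for Irf3, -0.077 ± 0.063 for Irf5 and -0.23 ± 0.12 for Irf9 (log2 ± SE). The Irf9 libraries did not overlap at 1 h, with 568, 561 and 571 in KO below 695, 675 and 635 in WT (adjusted p = 0.118). Relative to the median of all genes at 1 h, these differences were -0.26, -0.33 and -0.48 (adjusted p = 0.03, 2.5e-04 and 0.01), and the difference of Irf2, -0.13 ± 0.061 as deposited, was -0.38. Of all interaction terms, 3 of 9 were called at 1 h (Irf2, Irf7 and Irf8, all lower) and 3 of 9 at 18 h (Irf1 higher, Irf2 lower, and Ifnb1 higher from groups listed at 0), against 18.4% and 14.8% of all genes.

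**Figure D3:**
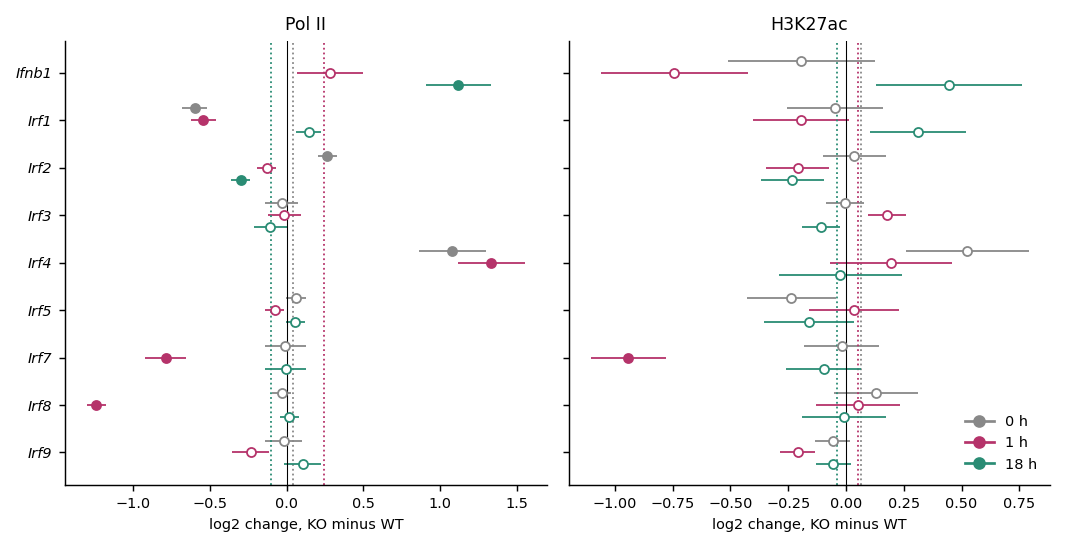
Log2 difference in Pol II (left) and in H3K27ac (right) between KO and WT (horizontal axis, ± SE) for each gene at 0, 1 and 18 h. Filled points were called at an adjusted p under 0.05, and dotted lines give the median of all genes tested at that time. In Pol II, Irf8 at -1.24, Irf7 at -0.79 and Irf1 at -0.54 lie left of 0 at 1 h, and Irf4 at 1.33 lies right of it. The Pol II point of Ifnb1 at 18 h rests on WT libraries listed at 0.

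At the starts of these genes H3K27ac rose after LPS at Ifnb1, Irf1, Irf7 and Irf9 in both genotypes and fell at Irf8 at 1 h. After 1 h of LPS 5 of 9 genes were called in WT (Ifnb1, Irf1, Irf7 and Irf9 higher, Irf8 lower), where 54.6% of all genes were, and 7 of 9 in KO (5 higher, 2 lower), against 46.9%. At 18 h against 0 h 5 were called in each genotype (Ifnb1, Irf1, Irf7 and Irf9 higher, Irf4 lower), against 49.9% in WT and 52.6% in KO, and from 1 h to 18 h 6 in each (3 higher, 3 lower), against 57.6% and 44.5%. Without KO replicate 1 the KO counts were 7, 6 and 7, against 62.5%, 68.2% and 66.7% of all genes. At Ifnb1 the mark went from 10.4, 8.86 and 0 normalized tags in WT at 0 h to 382, 448 and 394 at 1 h and 37.2, 39.5 and 42.9 at 18 h, no time overlapping another. The log2 changes were 4.73 ± 0.32 and 1.67 ± 0.32 (adjusted p = 9.4e-09 and 4.1e-04), and no Pol II region was called over Ifnb1 in WT at 18 h. The WT input held 24.2 tags at this start at 18 h and 0 at 0 h, and with input subtracted the 18 h change was 0.71 (adjusted p = 0.088), so that call was lost. At Irf7 the WT libraries rose from 137, 128 and 118 to 533, 537 and 524 and then to 1015, 838 and 862 (log2 1.98 ± 0.16 and 2.73 ± 0.16). Irf9 rose by 0.84 ± 0.076 and 1.10 ± 0.076, and Irf1 by 1.30 ± 0.21 and 1.003 ± 0.21. At Irf8 the mark fell at 1 h, from 458, 457 and 479.9 to 239, 279 and 245 (log2 change -0.85 ± 0.18 SE, adjusted p = 9.8e-04), and was at 471, 466 and 484 at 18 h. At Irf2, where Pol II fell by 1 h, the change of the mark in WT was -0.16 ± 0.14 (adjusted p = 0.347). In KO the mark at Irf2 went from 1179, 1121 and 1091 tags to 738, 917 and 918 at 1 h, without overlap. That KO change was called in 9 of 12 alternatives, from -0.66 to -0.24.

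Between genotypes, H3K27ac differed at Irf7. At 0 h limma called 0 of 9 members, and 0 had an unadjusted p under 0.05, where 0.77% of all genes were called. At 1 h 1 of 9 was called, against 18.5%, at 18 h 0 (0 at an unadjusted p under 0.05), against 3.24%, and over the mean of the 3 times 1, against 6.87%. The gene was Irf7 in both cases, with 333, 246 and 244 tags in KO and 533, 537 and 524 in WT at 1 h, all KO libraries below all WT libraries (log2 change -0.94 ± 0.16 SE, adjusted p = 0.0023). Without KO replicate 1 the Irf7 difference was -1.08 (adjusted p = 3.4e-08), and with the same minimum region density in all libraries, which are of unequal depth, it was -0.94 (adjusted p = 0.0023). The call was lost without replicate 2, at -0.87 (adjusted p = 0.205), and without replicate 3, at -0.88 (adjusted p = 0.2), fits that keep KO replicate 1. At Ifnb1 the KO libraries of 1 h held 384, 210.0 and 168 tags, replicate 1 inside the WT range and the other 2 below it (log2 change -0.74 ± 0.32 SE, adjusted p = 0.105). Without replicate 1 that difference was -1.07 (adjusted p = 0.0072), with inputs of 63.1 tags in WT and 59.6 in KO. At Irf8 the mark in KO at 1 h was 161, 340.3 and 330.0, replicate 1 below and the others above WT, with a difference of 0.051 ± 0.18 (adjusted p = 0.862) and, without replicate 1, 0.39 (9.3e-05). In H3K27ac replicates 2 and 3 the mark at the Irf8 start was thus not lower in KO at 1 h, while Pol II over the gene was lower in all 3 Pol II libraries. Leaving out KO replicate 1 also gave calls at Irf3, of 0.26 at 1 h and -0.18 at 18 h, so that 4 of 9 were called at 1 h and 1 at 18 h, against 59.8% and 19.1% of all genes in that fit. Of the 9 interaction terms 0 were called by limma at 1 h or 18 h, with 1 (Irf7) and 0 at an unadjusted p under 0.05, against 0.543% and 0.63% of all genes called, and 3 were called at 1 h without that library, against 47.8%.

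**Figure D4:**
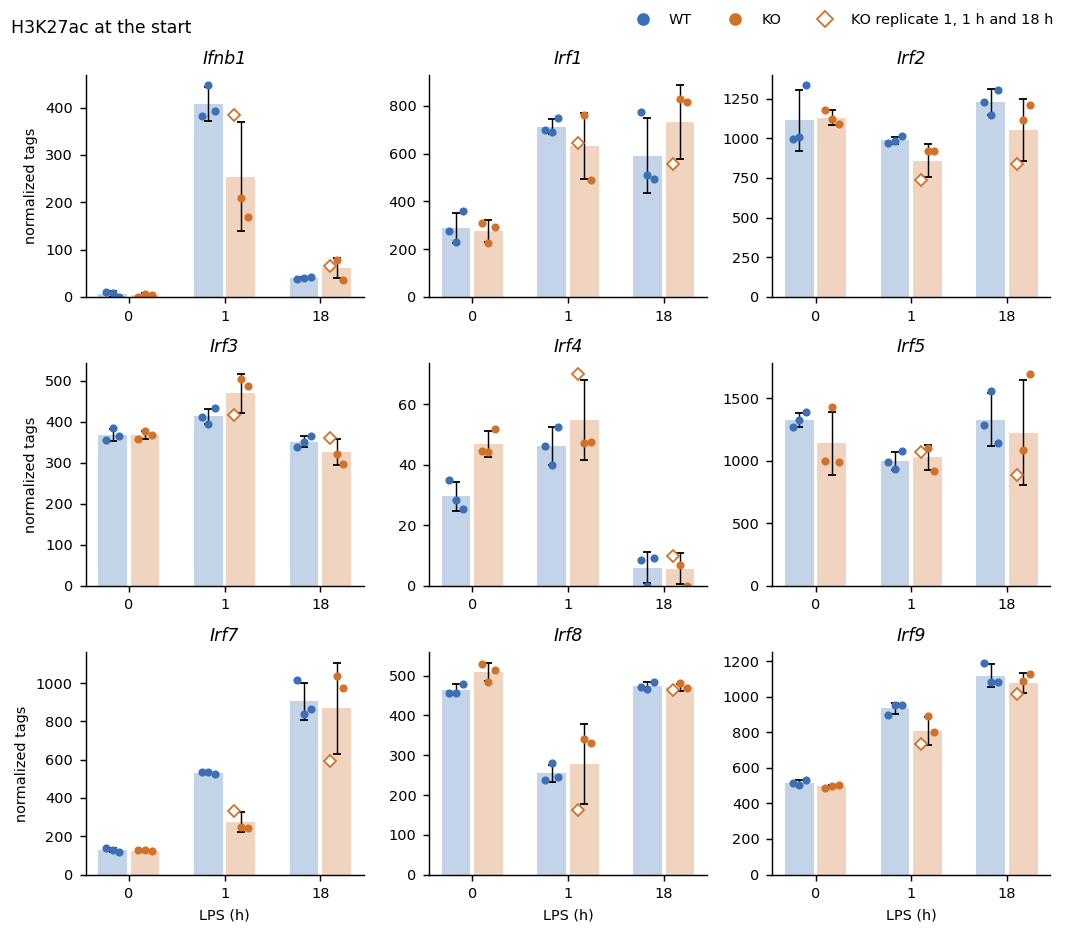
H3K27ac normalized tags within 2500 bp of the start of each of the 9 genes (vertical axis, per 10 M) at 0, 1 and 18 h of LPS (horizontal axis) in WT (blue) and Nur77-KO (orange) BMDMs; bars are means, whiskers SD, points the libraries and open diamonds KO replicate 1 at 1 h and 18 h. Irf7 at 1 h is lower in all 3 KO libraries, while at Ifnb1 and Irf8 the diamond stands apart from the other KO libraries.

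Away from promoters, 53 H3K27ac regions lay more than 2500 bp from any protein-coding start, nearest to a member and within 100 kb of it. Irf2 had 20 of them, Irf8 13, Irf4 10, Irf5 and Ifnb1 4 each, Irf1 and Irf7 1 each, and Irf3 and Irf9 none. In WT, 27 of 40 regions tested were called after 1 h of LPS, of which 10 rose and 17 fell, and 22 of 37 after 18 h, of which 7 rose and 15 fell, close to the 67.3% and 64% of all distal regions. Between genotypes 2 of 41 were called at 0 h. At 1 h 7 of 35 were, with 4 higher and 3 lower in KO, and at 18 h 6 of 32, with 3 in each direction, against 4.25%, 34.1% and 10.7%. Some of these calls passed the filter through a single genotype, so no size is read from them. Through KO alone passed the Irf4 regions at 34 kb (0 h) and 35.6 kb (18 h) and the Irf5 region at 20.3 kb (1 h). Through WT alone passed the Irf2 regions at 15.1 and 31.8 kb (1 h). Leaving out KO replicate 1 gave 11 calls among 41 regions before LPS, 21 among 34 after 1 h and 13 among 30 after 18 h, against 19.6%, 69.8% and 32.1% of all distal regions in the same fit. Nearness in the linear genome does not show which gene a region acts on.

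The strongest distal region of Ifnb1 lay 12.6 kb upstream (chr4:88535373-88540886, mm10). It held 40.2, 41.3 and 39.3 tags in untreated WT libraries, 224, 216 and 221 after 1 h of LPS, then 144, 148 and 147 after 18 h, and rose at both times (log2 change 2.19 ± 0.21 SE, adjusted p = 2.7e-07 at 1 h). In KO at 1 h it held 195, 247 and 256, around the WT values, and no difference between genotypes was called with all libraries. Without KO replicate 1 it was higher in KO at 0 h, by 0.28 (adjusted p = 0.0052), and at 1 h, by 0.18 (adjusted p = 0.024), and its 18 h response was smaller in KO, with an interaction of -0.37 (adjusted p = 0.011). Upstream of Irf8 a region at 14.4 kb (chr8:120707257-120721988) held 1047, 1083 and 1101 in WT and 792, 644 and 669 in KO at 1 h, without overlap. The difference was called (log2 change -0.62 ± 0.21 SE, adjusted p = 0.038) and was -0.71 (adjusted p = 2.7e-08) without KO replicate 1. With all libraries it was the one of 7 distal regions of Irf8 called at 1 h. Without KO replicate 1, 4 of 6 were called, of which the other 3 were higher in KO, among them the region at 19.7 kb, by 0.56 (adjusted p = 6.8e-04). At 18 h the latter was higher in KO with all libraries (log2 change 0.77 ± 0.20 SE, adjusted p = 0.025) and by 0.51 (adjusted p = 0.0037) without that one. The gene itself had less Pol II in KO at 1 h. At 0 h the region at 14.4 kb held 1203, 1194 and 1142 in WT and 1036, 1059.8 and 1057 in KO (log2 change -0.16 ± 0.21 SE, adjusted p = 0.853), and its interaction term at 1 h was not called (log2 change -0.45 ± 0.30 SE, adjusted p = 0.333). Without that library both were called, at -0.16 (adjusted p = 0.019) and -0.54 (adjusted p = 1.2e-05), and at 18 h the region was higher in KO by 0.18 (adjusted p = 0.013).

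Within Irf2 a region 44.6 kb past the start (chr8:46784356-46797305) was lower in KO at 18 h, as was the gene's Pol II. It held 1576, 1618 and 1603 tags in WT and 1170.2, 1160.0 and 1173 in KO at 0 h, and 1070.1, 1107 and 1136 and 512, 427 and 366 at 18 h, all KO libraries below all WT libraries at both times. Both differences were called (at 0 h log2 change -0.45 ± 0.12 SE, adjusted p = 0.044, and at 18 h log2 change -1.34 ± 0.12 SE, adjusted p = 2.5e-06). The latter was -1.46 (adjusted p = 1.2e-08) without KO replicate 1. Pol II over Irf2 was higher in KO at 0 h, so the directions differed before LPS. The largest Irf2 region, at the gene's 3′ end 92.2 kb from the start (chr8:46831886-46857902), was higher in KO at 1 h (log2 change 0.36 ± 0.10 SE, adjusted p = 0.016). Without KO replicate 1 it was higher by 0.32 (adjusted p = 1.4e-06) at 1 h and already at 0 h by 0.30 (adjusted p = 1.0e-05). Around Irf4, regions 35.6 kb and 81.0 kb past the start (chr13:30784838-30790184 and chr13:30830180-30835681) were both called higher in KO at 18 h. The nearer held 0, 0 and 7.06 in WT and 65.8, 7.83 and 18.4 in KO, so it passed the filter through KO alone and no size is given. The farther held 33.3, 34.9 and 37.4 in WT against 68.0, 76.5 and 72.4 in KO (log2 change 0.86 ± 0.21 SE, adjusted p = 0.016), or 0.90 (adjusted p = 3.4e-05) without KO replicate 1, a fit in which it was also lower in KO at 1 h, at -0.41 (adjusted p = 0.0044).

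The other factors had fewer distal regions. Downstream of Irf5 a region at 28.4 kb (chr6:29555023-29559515) rose from 7.72, 0 and 7.72 tags in WT to 139.9, 142 and 154 at 1 h and 284, 283 and 285 at 18 h (log2 change 4.33 ± 0.29 SE, adjusted p = 5.8e-09), while Irf5 itself changed little. Between genotypes that region was called at no time with all libraries, whereas without KO replicate 1 it was higher in KO at 0 h by 0.57 (adjusted p = 0.049), lower at 1 h at -0.78 (adjusted p = 0.0053) and higher at 18 h by 0.80 (adjusted p = 0.011). A smaller one at 20.3 kb held 0, 0 and 6.95 in WT and 6.09, 86.8 and 76.8 in KO at 1 h. KO replicate 1 lay within the WT range there, and as the region passed the filter through KO alone, its call is given no size. The region upstream of Irf1 at 19.3 kb rose at 1 h in WT (log2 change 1.17 ± 0.37 SE, adjusted p = 0.012), and the region 14.8 kb downstream of Irf7 was found at 18 h.

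**Figure D5:**
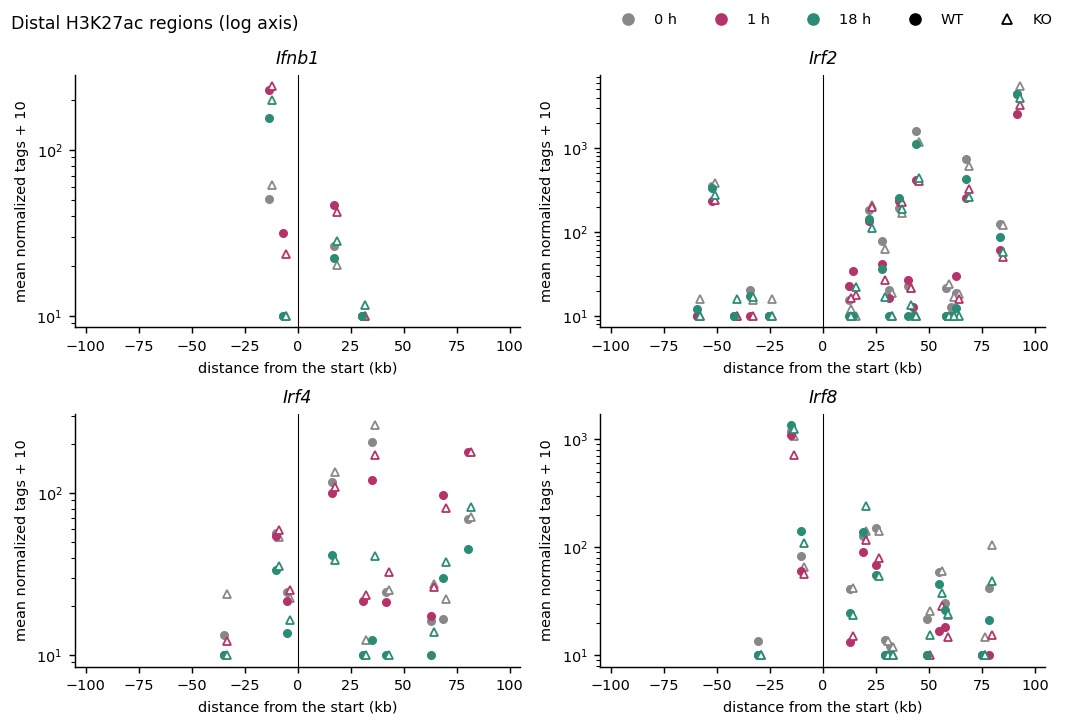
Mean H3K27ac (normalized tags + 10, log axis) of each distal region against its distance from the start of Ifnb1, Irf2, Irf4 or Irf8 in kb (negative is upstream); circles are WT and open triangles KO, with colours for 0, 1 and 18 h. The region 44.6 kb into Irf2 is lower in KO at 18 h, and the region 14.4 kb upstream of Irf8 is lower in KO at 1 h.

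The route from LPS to Ifnb1 was described by 15 genes, from the receptor chains Tlr4, Cd14 and Ly96 through the kinase Tbk1 to Rela, Nfkb1, Atf2 and Jun. All 15 were called in Pol II at 1 h in each genotype (12 higher, 3 lower), near the 86.9% and 82.9% of all genes, with a median log2 change of 0.79 in WT and 0.70 in KO beside all-gene medians of -0.82 and -0.62. Nfkb1, which encodes an NF-kB subunit, rose most in WT, from 1406 ± 207 to 13700.3 ± 184 tags (log2 change 3.29, adjusted p = 7.0e-16), and Jun fell most, by 2.11 log2 units, from 968 ± 59.4 to 217 ± 9.22. Between genotypes 3 of 15 were called at 0 h (2 higher, 1 lower), 8 at 1 h, all higher in KO, and 6 at 18 h (4 higher, 2 lower), where 6.96%, 45.7% and 21.1% of all genes were. The median of the list at 1 h was 0.22, near the all-gene median of 0.24. With each library centred on its median, 4 were called at 1 h, 1 higher and 3 lower, against 37% of all genes. The direction of that count thus depends on the scaling. Traf3, a ligase that TRIF signalling needs for Ifnb1, was lower in KO at 0 h (114 ± 38.5 against 194 ± 40.0 tags, log2 -0.74, adjusted p = 0.026) and had a larger response in KO at 1 h (interaction 1.23, adjusted p = 0.0051). At 18 h Nfkb1 was higher in KO (2585 ± 79.4 against 1545 ± 47.3, log2 0.74, adjusted p = 1.1e-05), while H3K27ac at its start was lower (log2 -0.84, adjusted p = 0.0029, and -0.98, adjusted p = 4.2e-05, without KO replicate 1).

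Of 5 genes that carry the interferon signal (Ifnar1, Ifnar2, Jak1, Tyk2 and Stat2), all were called higher in Pol II at 1 h and at 18 h in both genotypes, with median log2 changes of 1.32 and 1.42 in WT and 1.30 and 1.47 in KO. Of all genes, 86.9% and 66.5% were called in WT and 82.9% and 70.2% in KO. At 1 h 2 of the 5 were lower in KO and 0 higher, with a median of -0.0051 beside 0.24 for all genes, and at 18 h 2 were lower and 0 higher, against 45.7% and 21.1% of all genes called. With each library centred on its median, 3 were lower at 1 h, and at 18 h 3 were higher and 1 lower. That centring gave calls in 37% and 23.1% of all genes. Stat2, which encodes the partner of IRF9 in ISGF3, had 1080 ± 158 tags in KO against 1494 ± 74.2 in WT at 1 h (log2 -0.47, adjusted p = 4.2e-04), and its 1 h response was smaller in KO (interaction -0.37, adjusted p = 0.046). Tyk2, a receptor-bound kinase gene, rose most in WT at 1 h (log2 1.73) and Stat2 at 18 h (2.55), while Ifnar1, a receptor chain, was lower in KO at 18 h (log2 -0.29, adjusted p = 0.0037).

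The 12 genes taken as interferon targets (Ifit1, Ifit2, Ifit3, Isg15, Rsad2, Mx1, Oasl1, Cmpk2, Cxcl10, Usp18, Ccl5 and Gbp2) all rose in Pol II at 1 h and 18 h in both genotypes. Calls in either direction were made for 86.9% and 66.5% of all genes in WT and 82.9% and 70.2% in KO. Their median log2 change was 3.80 at 1 h and 5.12 at 18 h in WT, beside -0.82 and -0.0041 for all genes. In KO it was 4.18 and 6.16, beside -0.62 and -0.18. Between genotypes, 7 were called at 0 h (1 higher, 6 lower in KO, median -0.35), 7 at 1 h (all lower, median -0.48) and 6 at 18 h (all higher, median 0.34), beside medians over all genes of 0.043, 0.24 and -0.10 and calls in 6.96%, 45.7% and 21.1% of them. With each library centred on its median, all 12 were called lower at 1 h (median -0.73) and 8 higher at 18 h (median 0.48). The centred fit called 37% and 23.1% of all genes at these times. Gbp2, a guanylate-binding protein gene, differed most before LPS (44.1 ± 3.00 against 182 ± 15.1 tags, log2 -1.83, adjusted p = 2.4e-12). Mx1, an antiviral GTPase gene, led at 1 h (2346 ± 113 against 4702 ± 143, log2 -1.001, adjusted p = 1.3e-09). Ifit1, which encodes an RNA-binding antiviral protein, led at 18 h in the other direction (5185 ± 267 against 3290 ± 199.7, log2 0.66, adjusted p = 2.2e-05). H3K27ac at their starts was lower in KO at 6 of 12 at 1 h, with a median of -0.59, at 0 of 12 at 0 h and at 1 of 12 at 18 h, where 18.5%, 0.77% and 3.24% of all genes were called. Without KO replicate 1 at 1 h and 18 h, it was lower at all 12 at 1 h (median -0.79). In that fit 59.8% of all genes were called at 1 h. It was lower at 1 of 12 at 18 h with 2 higher, where 19.1% of all genes were called. At 0 h it was lower at 2 of 12 with 1 higher, and the share of all genes at 0 h in that fit is not given here.

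The other type I interferon genes had little Pol II. Of 17 (the Ifna genes, Ifnab, Ifne, Ifnk and Ifnz) 2 could be tested at 1 h. Ifnk was listed at 0 in untreated WT and KO cells and reached 41.7 ± 28.9 tags in WT and 65.9 ± 22.8 in KO at 1 h. Ifnz had 27.5 ± 5.77 tags in KO and 8.28 ± 2.13 in WT at 18 h (log2 1.03, adjusted p = 1.7e-04). Among 5 partner factors of IRF4 and IRF8 (Spi1, which encodes PU.1, Spib, Batf, Batf2 and Batf3), limma called 0 of 4 tested between genotypes at 1 h (0 at an unadjusted p under 0.05, and 1, lower in KO, with centring), against 45.7% of all genes. With centring 37% of all genes were called. Batf, an AP-1 family factor, rose from 405 ± 44.0 to 999 ± 51.5 tags in WT at 1 h (log2 1.29) and was higher in KO at 18 h (log2 0.33, adjusted p = 0.0075). Batf3 was lower in KO at 18 h (28.8 ± 1.49 against 47.3 ± 16.9 tags, log2 -0.52, adjusted p = 0.033). All 3 genes of IRF2-binding proteins fell at 1 h in both genotypes, as did 68.4% of all genes in WT and 62.2% in KO. Relative to the all-gene median 1 rose and 2 fell in each, with 75.4% and 74.6% of all genes called in either direction. Irf2bp2 was higher in KO at 1 h (log2 0.58, adjusted p = 7.1e-06) and lower at 18 h (-0.36, adjusted p = 0.0014), at 18 h the direction of Irf2 itself.

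By Pearson correlation of log2 Pol II over the 18 libraries, among 11406 genes with a mean of at least 50 tags in some group, the genes most like Ifnb1 were Ckap2l (r = 0.992), Nfkb1 (0.990) and Rab11fip1 (0.990). Most like Irf1 were Icosl (0.991), Cd47 (0.989) and Jdp2 (0.989), and most like Irf7 were Trafd1 (0.987) and Adap1 (0.987). Irf9 was closest to Xaf1 (0.951), Mx1 (0.947) and Zbp1 (0.944), and Irf2 to Rere (0.997), Tjp3 (0.996) and Psap (0.995). The nearest to Irf8 were Brd3os (0.978), Tns2 (0.971) and Ehbp1l1 (0.961), and the nearest to Irf4 were Fam129b (0.984), Zfp697 (0.979) and Gramd3 (0.978). For Irf5 they were Dbp (0.985), Trim17 (0.985) and Mgat1 (0.984), and for Irf3 Trim41 (0.903), Xntrpc (0.9004) and Xndc1 (0.9003). The 18 libraries form 6 groups, so the 18 points share their group means and are not independent.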

How the data were processed

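ChIP-seq for Pol II (18 libraries) and H3K27ac (18 libraries) and 6 inputs were analysed. Per the labels and the methods of the study, the authors aligned reads to mm10 with HISAT2 2.1.0 and called broad regions per library with HOMER (version not given in the sources used here). The file headers give a 500 bp window, stitching of regions within 1000 bp and a Poisson p of 0.001. The deposited signal is the normalized tag count of each region, a coverage scaled by the authors to 10 M tags. Scaled back by the total tags in the file headers, all 673496 values under 10 lay within 0.05 tag of a multiple of 0.5 tag, but regions that were not called carry no count, so no count test was run. The antibody named for Pol II differs between the labels and the methods of the study.

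Region values were shared out by overlap with gene windows (GENCODE gene models on GRCm38; 54 entries with duplicate symbols left out; bedtools 2.31.1, pandas 2.3.3). limma 3.58.1 (R 4.3.3) was fitted to log2(value + 10) of each antibody with 6 group means and an intensity trend, without a replicate block, on genes above 0 in at least 2 of 3 libraries of a compared group. P-values were adjusted by Benjamini-Hochberg over all genes tested, and an adjusted p under 0.05 was a call. Fold changes are on this scale and understate the change of low genes. Distal regions were H3K27ac regions merged over libraries and tested in the same way. The fitting steps were tested on simulated data. Alternatives were 1 tag added in place of 10, no filter, centring on the library median, a common density floor, whole regions, narrow windows (Pol II 500 bp and H3K27ac 1000 bp around the start), input subtraction, a replicate block, leaving out each replicate, leaving out H3K27ac KO replicate 1 at 1 h and 18 h, and a limit of 50 kb for distal regions.

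All 9 members were named in every comparison. Of each pathway list, the called genes with the largest change in either direction and those a sentence on a member needs were named, as were the 3 genes most like each member and the 2 distal regions of each member with the highest mean. Members and lists were chosen with earlier results of these data known. Peak scores and p-values in the region files were not used. No protein sequences were used here. A few genes that these rules and lists would name are not reported here.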

Additional observations from a re-analysis of the deposited data

Results flagged for a closer look

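The LPS response of Pol II differed between KO and WT, by a test of the interaction term in limma, for Irf8, Irf7, Irf2 and Irf1. At 1 h the response in KO less that in WT was -1.21 ± 0.089 log2 units (SE) for Irf8 (adjusted p = 1.4e-07), -0.78 ± 0.19 for Irf7 (0.009) and -0.39 ± 0.087 for Irf2 (0.005). At 18 h it was 0.74 ± 0.11 for Irf1 (3.0e-04) and -0.56 ± 0.087 for Irf2 (3.0e-04). The fit also called Ifnb1 at 18 h, at 1.12, but its WT groups at 0 h and 18 h and its KO group at 0 h are listed at 0, so that value is set by the tags added before taking logs (0.46 to 3.59 over the alternatives) and is no measured difference. Of 11 alternatives, the interactions of Irf8 at 1 h and of Irf1 at 18 h were called in all 11, that of Irf2 at 18 h in 10, that of Irf7 at 1 h in 8, and those of Irf2 at 1 h and Ifnb1 at 18 h in 7 each.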

How the results depend on the processing

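The 213 member results were recomputed under the alternatives, which gave 2447 values. Of these, 2290 kept direction and side of the threshold, 78 lost a call, 66 gained one and 13 reversed with a call on either side. A further 122, counted with the 2290, changed sign without passing the threshold. Centring each library on its median reversed Pol II changes of Irf3 (1 h against 0 h 0.47 in WT and 0.26 in KO, 18 h against 1 h -0.52 and -0.22), Irf5 (0.24 at 1 h against 0 h and -0.17 at 18 h against 1 h in WT), Irf8 (18 h against 1 h in WT -0.19) and Irf9 (the same contrast -0.58), since that centring removes the fall of the median gene. Counting regions whole gave 0.15 for Irf2 Pol II in KO against WT at 1 h and 0.41 for Irf2 H3K27ac at 18 h against 0 h in KO, and the narrow window gave 0.057 for Irf2 Pol II at 1 h in WT. For these the cause was not tested. H3K27ac in KO against WT at Irf7 at 18 h ran from -0.29 to 0.24 when each replicate was left out, the latter without replicate 1, and the Irf8 interaction at 1 h was 0.26 without KO replicate 1.

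The number of members called for Pol II in KO against WT was 1 at 0 h, 0 at 18 h and 3 for the mean of times in the narrow window, where the interaction at 18 h kept 1 call. Centring gave 8 calls at 1 h and 5 at 18 h, against 37% and 23.1% of all genes, and whole regions 7 and 4. Except where printed above, shares of all genes or regions in these fits are not given. The counts in this paragraph are then not set against a background. Leaving out each replicate gave 1 to 3 calls at 0 h, 1 to 2 at 18 h, 3 to 5 for the mean and 1 to 3 for the interaction at 1 h. For H3K27ac the narrow window left 3 calls at 18 h against 1 h in WT. In KO against WT at 1 h centring and whole regions each gave 2 calls, leaving out each replicate 0 to 4, and leaving out KO replicate 1 gave 4. At 18 h input subtraction gave 1, leaving out each replicate 0 to 1 and leaving out KO replicate 1 gave 1. The KO input of 18 h had fewer called regions (27554) than the other inputs. At most members its subtraction took less from KO than the WT input took from WT. The mean of times gave 0 to 2 calls without a replicate and 2 without KO replicate 1. The interaction at 1 h had 1 call with input subtraction, 0 to 3 without a replicate and 3 without KO replicate 1, and that at 18 h had 1 with input subtraction. Distal regions called in KO against WT at 0 h numbered 0 with 1 tag added or no filter, 1 with centring or the density floor, 4 with input subtraction, 2 to 4 without a replicate and 11 without KO replicate 1. At 1 h they numbered 11 with the density floor, 0 to 17 without a replicate and 21 without KO replicate 1, and at 18 h 1 to 13 and 13. Within 50 kb lay 17 of the 27 distal regions called at 1 h of LPS in WT. In that comparison 67.3% of all distal regions were called.

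With the replicate number as a block, the H3K27ac call at Irf7 for the mean of times was lost (adjusted p = 0.061, so 0 calls), the distal calls at 0 h went from 2 to 0, and no other count of calls moved by more than 1.5 times. The numbers did not pair the libraries, as same-numbered libraries deviated together at correlations of -0.072 to 0.107 for Pol II and -0.43 to 0.079 for H3K27ac.

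Low levels, such as those of Ifnb1 and Irf4 at 18 h, rest on whether a region passed the search in a library, so a lower level was not detectable at this depth. H3K27ac depth differed between genotypes, and its part in the genotype differences was not tested beyond the density floor.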
